A study of Mus musculus with 6 samples.

Results

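The genes described are 8 Toll-like receptor genes (Tlr1, Tlr2, Tlr3, Tlr4, Tlr7, Tlr8, Tlr9 and Tlr13) and the 2 genes of the lipopolysaccharide (LPS) co-receptors, Cd14 and Ly96. They were taken by gene name from a table of 54532 genes, all 10 were present, and all 10 passed the filter on low counts that left 14333 genes for testing. The rule used only gene names, but the family was picked with earlier results of these data known. RNA was sequenced from bone marrow-derived macrophages, cells grown in culture from the bone marrow of C57BL/6 mice of 32 to 34 weeks. The group XWT (3 libraries) had the genotype Xbp1FL/FL, in which the Xbp1 alleles carry recombination sites but are intact, and the group XKO (3 libraries) had the genotype written Xbp1ΔMf, a deletion of Xbp1. Both groups were LPS-primed, and for the following 48 h the cells stood in medium that wild-type primary hepatocytes had conditioned. Every library therefore comes from LPS-primed cells, and what priming did to these genes cannot be read from this comparison. The labels name neither the driver of the recombinase nor the dose of LPS, and nothing in them shows that samples came from separate animals or cultures. The p-values therefore rest on a spread between libraries that may be technical.

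Toll-like receptors are membrane proteins that bind conserved microbial molecules and signal through adaptor proteins to NF-kB and interferon regulatory factors. TLR1, TLR2 and TLR4 act mainly at the cell surface and detect lipoproteins and LPS, whereas TLR3, TLR7, TLR8, TLR9 and TLR13 act in endosomes and detect nucleic acids. All are folded in the endoplasmic reticulum, and the endosomal receptors then need a chaperone, UNC93B1, to leave it. XBP1 is a transcription factor by which cells answer misfolded protein in that compartment, and signals from TLR2 and TLR4 are known to activate it in macrophages.

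Of the 10 genes, 1 was lower in XKO, 1 was slightly higher and 8 did not pass the test. Tlr9, the receptor for unmethylated CpG DNA, fell by 31.0%. Tlr4, the LPS receptor, rose by 16.3%, with a call that ended under several other ways of processing. The median log2 fold change of the 10 genes was -0.02, beside 0.00 for all tested genes. Among all tested genes, 14.0% passed an adjusted p of 0.05 (edgeR quasi-likelihood test), 6.00% as higher and 7.99% as lower, and the 1 and 1 of 10 found here lie near those shares. For 2 of the 10 genes, Tlr9 and Tlr4, all libraries of one group lay above those of the other, beside 36.2% of all tested genes. With libraries scaled by their size alone 60.7% of the called genes were higher, and with trends of gene length and GC content removed 58.5%, against 42.9% as reported.

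**Figure D1:**
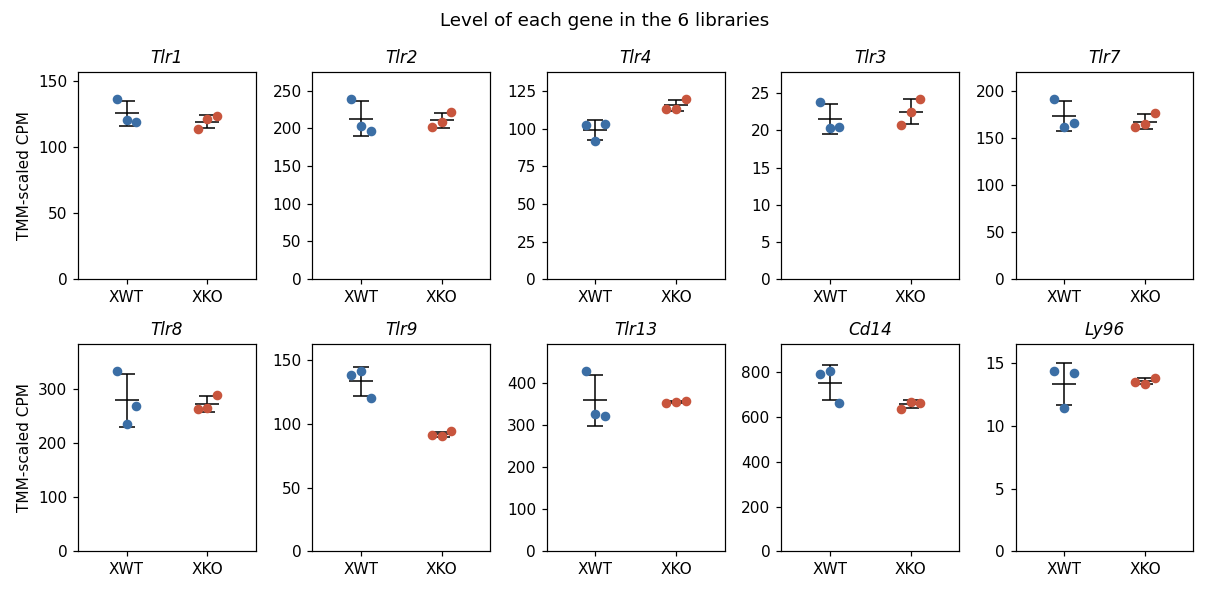
TMM-scaled CPM of each gene in the 3 XWT (blue) and 3 XKO (red) libraries, with the mean (long bar) and SD (capped bar); points within a group stand in the order of their numbers 1 to 3. In Tlr9 the XKO libraries lie between 91.0 and 94.4 CPM and all XWT libraries at 120 or above, whereas in the other genes except Tlr4 the groups overlap.

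The libraries held between 28354866 and 30891729 counts. Ly96, the shortest of the 10 genes by exonic bases and the one with the fewest counts, had 339 to 445 counts per library. CPM are counts relative to the size of a TMM-scaled library. Xbp1 itself stood at 159, 157 and 132 CPM in XWT and at 76.8, 79.4 and 76.5 CPM in XKO. Its count covers the whole gene and so only partly checks the genotype. The 8 macrophage markers were detected in all libraries, 0 were called higher and 1 lower, and their median log2 fold change was -0.17. The lower one was Lyz2, the lysozyme gene of myeloid cells, which fell from 31140 ± 3553 to 14274 ± 583 CPM (SD, n = 3 each; log2 fold change -1.13, edgeR adjusted p = 1.06e-06), so that the list summed to 39371 to 47622 CPM in XWT and 25101 to 26740 CPM in XKO. DESeq2 called 3 of the 8 lower. Among those not called by edgeR, Csf1r stood at 3912 ± 168 and 3645 ± 59.3 CPM and Adgre1 at 6614 ± 328 and 5750 ± 216 CPM (SD, n = 3 each, XWT then XKO). Markers of stroma summed to 620 to 718 CPM in XWT and 58.3 to 72.6 CPM in XKO, with all 8 tested members lower (2 of the 10 listed were not tested). Markers of neutrophils summed to 30.8 to 39.8 CPM in XWT and 61.3 to 65.0 CPM in XKO, with 7 of 8 tested members higher. Most of this sum came from Lcn2 and Mmp8. Of the same list Mpo was not called, Elane was not tested, and Ly6g had no count in any library. These lists moved between the same groups as Tlr9 and Tlr4, and their part in the results below was not tested. In such bulk samples, fewer cells of a type and less RNA per cell cannot be told apart.

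Tlr9 showed the clearest difference. The gene (ENSMUSG00000045322, on chromosome 9 from 106222598 to 106226883, plus strand) stood at 139, 142 and 120 CPM in XWT 1, XWT 2 and XWT 3 and at 91.1, 91.0 and 94.4 CPM in XKO 1, XKO 2 and XKO 3. Every XKO library lay below every XWT library, and the XWT library nearest to them was XWT 3. The group means were 134 ± 11.5 CPM in XWT and 92.2 ± 1.97 CPM in XKO (SD, n = 3 each). This is a log2 fold change of -0.54 (standard error 0.072, 95% interval -0.69 to -0.38, edgeR quasi-likelihood test, adjusted p = 0.000252). It was called under all 16 other ways of processing, with log2 fold changes from -0.61 to -0.42 and a largest adjusted p of 0.00374. No sequence of 50 bases of its longest transcript occurs in a transcript of another gene in GENCODE M21, and no annotated exon of another gene overlaps it.

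TLR9 is also known from B cells and plasmacytoid dendritic cells, so their markers were read beside it. Of the B cell list, Pax5 had no count in any library. Cd79a had group means of at most 0.15 CPM, and Ms4a1 had 0.023 CPM in XWT and 0.19 CPM in XKO. Cd79b stood at 3.00 ± 0.47 and 1.90 ± 0.34 CPM (SD, n = 3 each, XWT then XKO). It was not called (log2 fold change -0.65, edgeR adjusted p = 0.0591). The heavy-chain gene Ighm of the same list fell from 44.8 ± 7.36 to 18.6 ± 1.89 CPM (SD, n = 3 each; log2 fold change -1.27, edgeR adjusted p = 1.33e-05), and the list summed to 39.6 to 54.5 CPM in XWT and 19.1 to 22.9 CPM in XKO. Of the plasmacytoid list, Klk1 had no count and Siglech had 0.076 and 0.16 CPM in XWT and XKO. Its member Irf8, a transcription factor that macrophages express too, fell from 240 ± 21.8 to 202 ± 6.55 CPM (SD, n = 3 each; edgeR adjusted p = 0.0389). Ccr9 of the plasmacytoid list went the other way, from 0.32 ± 0.12 CPM in XWT to 0.69 ± 0.049 CPM in XKO (SD, n = 3 each). It was not called (log2 fold change 1.11, edgeR adjusted p = 0.0825). Neither were Bst2 and Tcf4 (edgeR adjusted p = 0.591 and 0.652). The 6 genes of this list summed to 654 to 760 CPM in XWT and 628 to 666 CPM in XKO, most of it from Bst2, Irf8 and Tcf4. The part of these cells in the fall of Tlr9 was not tested.

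The promoter table of RefSeq (GRCm38.p6) had entries for 6 of the 10 genes. The 250 bases before the start of Tlr9, the gene that fell, are shown beside those of Tlr8, an endosomal receptor gene whose groups overlapped. Neither window overlaps an annotated exon. Capitals mark the letters GAGGAA or their reverse complement TTCCTC, one form of the site bound by ETS factors such as the macrophage regulator PU.1. The shorter ETS core GGAA also occurs elsewhere in both windows and was not marked.
Tlr9, chr9:106222348-106222597, plus strand: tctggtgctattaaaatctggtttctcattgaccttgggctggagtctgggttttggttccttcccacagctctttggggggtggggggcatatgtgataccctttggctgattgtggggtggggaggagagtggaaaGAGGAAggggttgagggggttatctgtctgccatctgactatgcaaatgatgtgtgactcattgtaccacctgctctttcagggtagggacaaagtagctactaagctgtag
Tlr8, chrX:167264330-167264579, minus strand: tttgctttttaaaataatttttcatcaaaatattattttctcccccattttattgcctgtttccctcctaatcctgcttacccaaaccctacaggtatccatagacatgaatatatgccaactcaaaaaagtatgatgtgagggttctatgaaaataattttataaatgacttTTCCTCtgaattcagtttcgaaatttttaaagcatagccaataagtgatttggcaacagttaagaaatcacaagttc
Each window holds the marked letters GAGGAA once, on the plus strand of Tlr9 and on the opposite strand of Tlr8. Of all 32851 promoter windows of this length, 23.3% hold them on either strand. The letters CCACG, found in XBP1-bound elements, occur in 28.3% of all windows and in neither of these, nor in the windows of Tlr1, Tlr2, Tlr3 and Tlr13. The GC content was 50.4% in the Tlr9 window, which holds 0 CpG dinucleotides, and 31.2% in the Tlr8 window, with a median of 52.4% over all windows. These matches describe letters in a window and not bound sites.

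The other endosomal receptor genes did not pass the test. Tlr7 (ENSMUSG00000044583, chromosome X from 167304929 to 167330558, minus strand), a receptor for single-stranded RNA, stood at 192, 162 and 167 CPM in XWT 1 to 3 and at 161, 164 and 177 CPM in XKO 1 to 3. Its groups overlapped, with XWT 1 the highest library (log2 fold change -0.05, 95% interval -0.21 to 0.11, edgeR adjusted p = 0.695). Tlr8 (ENSMUSG00000040522, chromosome X from 167242696 to 167264329, minus strand), its close relative in the same stretch of the chromosome, stood at 332, 236 and 267 CPM in XWT 1 to 3 and at 262, 265 and 289 CPM in XKO 1 to 3. XWT 1 and XWT 2 were the highest and the lowest of all 6 libraries (log2 fold change -0.03, 95% interval -0.27 to 0.20, edgeR adjusted p = 0.861). Tlr13 (ENSMUSG00000033777, chromosome X from 106143204 to 106160493, plus strand), which detects bacterial ribosomal RNA, stood at 427, 325 and 321 CPM in XWT 1 to 3 and at 352, 355 and 357 CPM in XKO 1 to 3. The XKO libraries were almost equal and lay between XWT 1 and the other two XWT libraries (log2 fold change -0.01, 95% interval -0.22 to 0.20, edgeR adjusted p = 0.947). Tlr3 (ENSMUSG00000031639, chromosome 8 from 45395665 to 45411080, minus strand), the receptor for double-stranded RNA, stood at 23.8, 20.3 and 20.5 CPM in XWT 1 to 3 and at 20.8, 22.5 and 24.2 CPM in XKO 1 to 3. Its groups covered nearly the same range (log2 fold change 0.07, 95% interval -0.14 to 0.27, edgeR adjusted p = 0.667). An antisense gene, Gm45542, overlaps 381 of its 5207 exonic bases, but had no count in any library. The signs of the small changes of Tlr7, Tlr8 and Tlr13 turned with libraries scaled by size alone or without XWT 1 (for Tlr13 also with limma-voom), and that of Tlr3 with length and GC trends removed, in each case without passing the test.

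Ratios of counts within a library do not depend on how libraries are scaled. They were chosen after the values had been seen, and 3 against 3 libraries cannot give an exact permutation p below 0.10, so they are given as a description. The count of Tlr7 was 1.38, 1.14 and 1.38 times that of Tlr9 in XWT 1 to 3 and 1.77, 1.81 and 1.87 times in XKO 1 to 3. The count of Tlr13 stood at 3.08, 2.30 and 2.66 times that of Tlr9 in XWT and 3.87, 3.90 and 3.78 times in XKO. Both ratios were higher in every XKO library than in any XWT library.

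**Figure D2:**
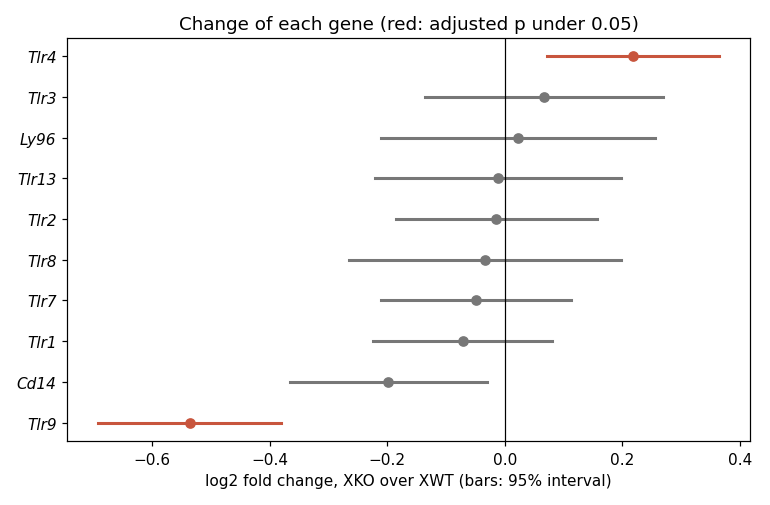
Log2 fold change of each gene, XKO over XWT, with its 95% interval from the edgeR fit; red marks an adjusted p under 0.05. Tlr9 at -0.54 lies apart from the 8 grey genes, which lie between -0.20 and 0.07, and Tlr4 at 0.22 is the only gene called higher.

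LPS is handed by CD14 to MD-2, the product of Ly96, which holds it against TLR4 at the cell surface. Tlr4 (ENSMUSG00000039005, chromosome 4 from 66827584 to 66930284, plus strand) stood at 102, 91.7 and 103 CPM in XWT 1 to 3 and at 113, 113 and 120 CPM in XKO 1 to 3. The groups did not overlap, and the means were 99.1 ± 6.42 and 115 ± 3.79 CPM (SD, n = 3 each). This is a log2 fold change of 0.22 (standard error 0.068, 95% interval 0.07 to 0.36, edgeR adjusted p = 0.0479). The call ended without XWT 1 (0.24, adjusted p = 0.0525), XWT 2 (0.16, 0.0995), XKO 1 (0.23, 0.142), XKO 2 (0.23, 0.151) or XKO 3 (0.19, 0.208), and held without XWT 3 (0.25, 0.0157). With trends of gene length and GC content removed, the log2 fold change was 0.03 (adjusted p = 0.749).

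Cd14 (ENSMUSG00000051439, chromosome 18 from 36725074 to 36726736, minus strand) stood at 790, 804 and 663 CPM in XWT 1 to 3 and at 636, 668 and 663 CPM in XKO 1 to 3. XWT 1 and XWT 2 lay above all XKO libraries, and XWT 3 lay among them. The difference, -0.20 on the log2 scale (standard error 0.078, 95% interval -0.37 to -0.03, unadjusted p = 0.0239), did not pass the test (edgeR adjusted p = 0.105). Without XWT 3 it was called (log2 fold change -0.28, adjusted p = 0.00209). Ly96 (ENSMUSG00000025779, chromosome 1 from 16688051 to 16709611, plus strand) stood at 14.4, 11.4 and 14.2 CPM in XWT 1 to 3 and at 13.5, 13.4 and 13.8 CPM in XKO 1 to 3. Its XKO libraries lay inside the range of the XWT libraries (log2 fold change 0.02, 95% interval -0.21 to 0.26, edgeR adjusted p = 0.908). Its sign turned with length and GC trends removed (-0.20) and without XWT 2 (-0.08), again without passing the test. The count of Tlr4 relative to that of Cd14 came to 0.130, 0.114 and 0.156 in XWT and 0.178, 0.169 and 0.180 in XKO, higher in every XKO library, and the ratio of Cd14 to Ly96 overlapped between the groups.

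**Figure D3:**
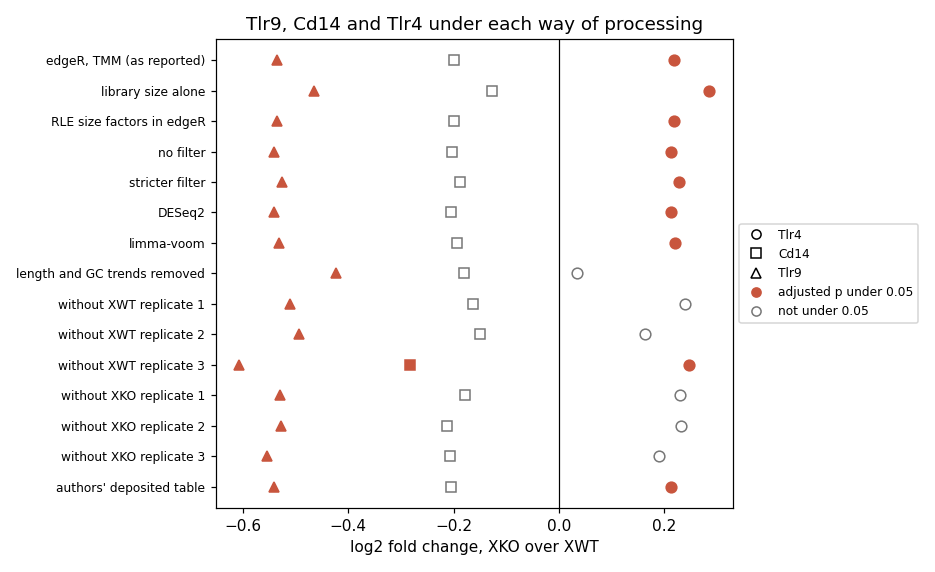
Log2 fold change, XKO over XWT, of Tlr9 (triangles), Cd14 (squares) and Tlr4 (circles) under each way of processing except the replicate block and the threshold of 0.01, where Tlr4 was not called; filled red symbols have an adjusted p under 0.05. Tlr9 is called in every line, Cd14 only without XWT replicate 3, and Tlr4 in 8 of the 9 plotted lines that use all libraries and in 1 of the 6 that leave one out.

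TLR2 pairs with TLR1 or TLR6 to detect bacterial lipoproteins. Tlr2 (ENSMUSG00000027995, chromosome 3 from 83836272 to 83841767, minus strand) stood at 239, 203 and 197 CPM in XWT 1 to 3 and at 202, 208 and 222 CPM in XKO 1 to 3. Its groups overlapped, and the sign of its small change turned with library size alone, with length and GC trends removed and without XWT 1 or XKO 1, without passing the test (log2 fold change -0.01, 95% interval -0.18 to 0.16, edgeR adjusted p = 0.921). Tlr1 (ENSMUSG00000044827, chromosome 5 from 64924679 to 64933563, minus strand) stood at 136, 120 and 119 CPM in XWT 1 to 3 and at 113, 121 and 123 CPM in XKO 1 to 3. The groups overlapped here too (log2 fold change -0.07, 95% interval -0.22 to 0.08, edgeR adjusted p = 0.524). Of the sequences of 50 bases in the longest Tlr1 transcript, 15.3% also occur in its neighbour Tlr6, so that reads of the pair can be shared and both values are uncertain. Tlr6 stood at 31.3 ± 2.76 CPM in XWT and 31.8 ± 0.38 CPM in XKO (SD, n = 3 each; edgeR adjusted p = 0.884). Of the remaining family genes, Tlr5 had 0.87 ± 0.060 and 1.03 ± 0.33 CPM (SD, n = 3 each; edgeR adjusted p = 0.640), and Tlr11 and Tlr12, with group means of at most 0.19 CPM, were not tested. Of these 4 genes, 2 were tested and 0 were called by edgeR or DESeq2, and 0 had an unadjusted p under 0.05 in edgeR.

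The 95% intervals of the 8 genes that were not called reached down to -0.37 (Cd14) and up to 0.27 (Tlr3) on the log2 scale, which bounds the changes these libraries allow. These intervals rest on the TMM scaling and on the same spread in both groups. The spread was not alike. All 10 genes had a larger SD of log2 CPM in XWT than in XKO, as had 76.1% of all tested genes. It was 0.23 in XWT against 0.010 in XKO for Tlr13, and 0.25 against 0.077 for Tlr8, with medians of 0.15 and 0.075 over all tested genes. XWT 1 was the highest XWT library in 7 of the 10 genes and in 33.8% of all tested genes, and XKO 3 was the highest XKO library in 9 of the 10 and in 37.2% of all tested genes.

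Relative to gene length, Cd14 was by far the most abundant of the 10 genes. The deposited FPKM are fragments relative to gene length and a scaled library size. That length covers the exons of a gene and can exceed its longest transcript. Cd14 stood at 478 ± 52.0 FPKM in XWT and 415 ± 10.9 FPKM in XKO (SD, n = 3 each), above 99.5% of the tested genes. Tlr13 followed with 83.0 ± 14.2 and 82.0 ± 0.53 FPKM, Tlr8 with 77.5 ± 13.8 and 75.4 ± 4.04 FPKM, and Tlr2 with 70.5 ± 7.76 and 69.5 ± 3.32 FPKM (SD, n = 3 each, XWT then XKO). Tlr8 overlapped with both neighbours in this order in XWT and with Tlr2 in XKO. Tlr7 (42.4 ± 3.97 and 40.8 ± 2.00 FPKM), Tlr1 (37.3 ± 2.95 and 35.4 ± 1.47 FPKM) and Tlr9 (38.4 ± 3.51 and 26.4 ± 0.55 FPKM) formed the next range. The ranges of Tlr1 and Tlr9 overlapped in XWT, whereas in XKO every Tlr1 value lay above every Tlr9 value. Tlr4 was lower, at 17.8 ± 1.09 and 20.6 ± 0.67 FPKM, followed by Ly96 at 13.0 ± 1.59 and 13.2 ± 0.22 FPKM and Tlr3 at 4.12 ± 0.38 and 4.30 ± 0.33 FPKM (SD, n = 3 each). These last 3 did not overlap with each other in either group, and Tlr3 lay above 48.2% of the tested genes. The LPS co-receptors therefore stood at opposite ends of the LPS receptor genes, with Cd14 above Tlr4 and Ly96 below it in all 6 libraries.

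**Figure D4:**
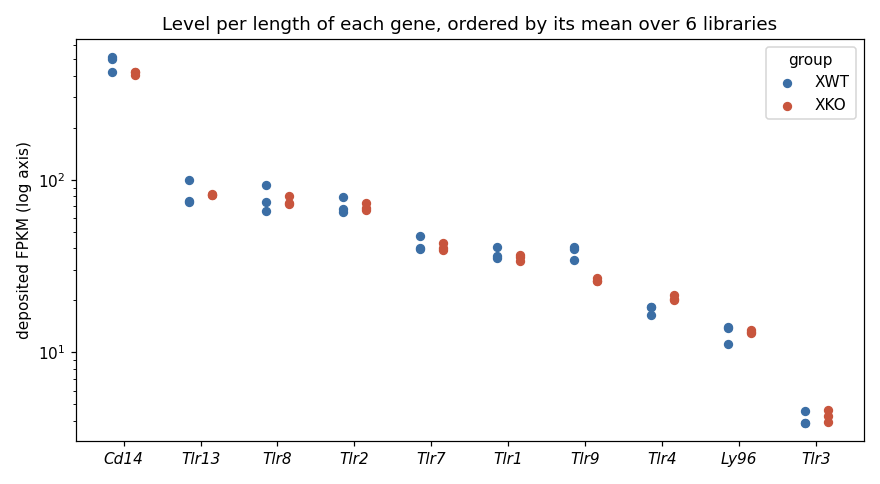
Deposited FPKM of each gene on a log axis, ordered by the mean over 6 libraries, with XWT in blue and XKO in red. Cd14 lies above 400 FPKM in all libraries and Tlr3 below 5, and Tlr9 is the gene whose red points fall farthest below the blue ones.

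The partners of these receptors were read from 7 lists of pathway genes, in which 75 genes were tested, 10 were higher and 9 lower. Among all tested genes 6.00% were higher and 7.99% lower, 14.0% in all, and each list's count is to be read against these shares. The lists were chosen with earlier results of these data known, so setting them beside these shares is a description and no test. Of 6 tested genes that deliver ligands or partner the receptors at the surface, 0 were higher and 1 was lower. It was Ly86, whose product MD-1 holds the TLR4-like receptor CD180, at 150, 146 and 135 CPM in XWT 1 to 3 and 95.4, 101 and 110 CPM in XKO 1 to 3 (log2 fold change -0.49, standard error 0.072, edgeR adjusted p = 0.000498). Cd180 itself stood at 316 ± 57.9 and 304 ± 5.66 CPM (SD, n = 3 each; adjusted p = 0.749), and exons of Mast4 overlap it. DESeq2 called 1 gene of this list higher, the counts without XWT 3 were 1 higher and 2 lower, and without XWT 1 they were 1 and 1. The median log2 fold change of the list was -0.11.

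Of 11 tested genes of receptor folding and trafficking, 0 were higher and 1 was lower, with a median of -0.06. It was Slc15a4, an endolysosomal transporter needed for signalling by TLR7 and TLR9, at 93.8, 103 and 87.3 CPM in XWT 1 to 3 and 75.5, 73.1 and 72.3 CPM in XKO 1 to 3. Every XKO library lay below every XWT library (log2 fold change -0.36, standard error 0.071, edgeR adjusted p = 0.00455). The chaperone gene Unc93b1 stood at 1297 ± 93.2 and 1148 ± 25.9 CPM (SD, n = 3 each; adjusted p = 0.108) and the ER chaperone gene Hsp90b1 at 420 ± 43.3 and 486 ± 6.61 CPM (adjusted p = 0.0848), both named after their values were seen. At an unadjusted p under 0.05, 2 genes of this list were higher and 4 lower; without XWT 3 the calls were 2 higher and 3 lower, and without XWT 2 they were 1 and 1.

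Endolysosomal proteases trim the nucleic-acid receptors to their active form, and nucleases there limit their ligands. Of 10 tested genes of this kind, 1 was higher and 3 were lower, 40% against the 14.0% of all tested genes, with a median of 0.04. Lgmn, an asparagine endopeptidase, fell from 1225 ± 123 to 852 ± 27.0 CPM, and Pld4, an exonuclease that degrades TLR9 ligands, from 845 ± 74.6 to 663 ± 16.4 CPM (SD, n = 3 each; edgeR adjusted p = 0.000569 and 0.00680). Ctsk, a cathepsin best known from osteoclasts, rose from 20.0 ± 0.25 to 29.3 ± 1.42 CPM, and Ctsb, an abundant cathepsin, was lower at 10071 ± 777 against 8556 ± 89.5 CPM (SD, n = 3 each; edgeR adjusted p = 0.000387 and 0.0469). An exon of Fdft1 overlaps Ctsb on the other strand, and the call of Ctsb held among single-library omissions only without XWT 3. The 3 lower genes became 1 without XKO 2, where the call of Pld4 ended (adjusted p = 0.0629).

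Of 19 tested adaptor and kinase genes that carry the signal onward, 4 were higher and 2 lower, 31.6% against the 14.0% of all tested genes, with a median of 0.07. Peli1, a ubiquitin ligase of the TRIF pathway, stood at 70.1, 59.8 and 69.4 CPM in XWT 1 to 3 and at 87.0, 83.9 and 92.6 CPM in XKO 1 to 3 (log2 fold change 0.40, standard error 0.076, edgeR adjusted p = 0.00349). Ikbkg, the scaffold of the IKK complex, rose by 0.28 and the kinase gene Irak2 by 0.26 on the log2 scale (edgeR adjusted p = 0.0150 and 0.0159). The fourth gene that rose was Tbk1 (0.26). Ticam1, which encodes the adaptor TRIF of TLR3 and TLR4, stood at 35.5, 35.7 and 30.2 CPM in XWT 1 to 3 and at 27.6, 26.7 and 24.0 CPM in XKO 1 to 3 (log2 fold change -0.37, standard error 0.090, edgeR adjusted p = 0.0153). The other lower gene was Irak4 (-0.25), the first kinase recruited to MyD88. Myd88 stood at 119 ± 13.2 and 107 ± 2.76 CPM (SD, n = 3 each; adjusted p = 0.199). Tbk1, Irak4 and Myd88 were named after their values were seen. Exons of other genes on the opposite strand overlap Ikbkg (G6pdx), Irak2 (Gm43963), Irak4 (Twf1) and Myd88 (Acaa1a), whose values are uncertain without strand. Of these other genes, Gm43963 had only 9 to 35 counts per library, beside 1704 to 2324 for Irak2. The 4 higher genes became 1 without any single XKO library, and the 2 lower became 1 without XWT 2 or XKO 1 and 0 without XKO 2 or XKO 3. Without XWT 3 they were 6 higher and 3 lower. Peli1 was called in all of these fits.

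Of 14 tested negative regulators, 0 were higher and 1 was lower, with a median of -0.015. It was Il1rl1, the interleukin receptor ST2, at 1.19, 1.21 and 1.22 CPM in XWT 1 to 3 and 0.48, 0.20 and 0.26 CPM in XKO 1 to 3 (log2 fold change -1.93, standard error 0.374, edgeR adjusted p = 0.00405), a level of few counts. The summed stromal markers fell between the same groups, and their part in this was not tested. At an unadjusted p under 0.05, 3 genes of the list were higher and 2 lower, DESeq2 called 0 higher and 1 lower, and without XWT 3 the lower genes became 4 and without XWT 1 the higher became 1. The stricter filter left Il1rl1 out, with 0 lower genes.

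Of 13 tested genes that LPS induces in macrophages, 5 were higher and 1 lower, 46.2% against the 14.0% of all tested genes, with a median of 0.03. Tnf, a main inflammatory cytokine, stood at 22.8, 22.1 and 22.0 CPM in XWT 1 to 3 and at 36.5, 36.1 and 38.9 CPM in XKO 1 to 3 (log2 fold change 0.74, standard error 0.075, edgeR adjusted p = 1.68e-05). Acod1, the enzyme that makes itaconate, rose from 226 ± 37.8 to 387 ± 13.4 CPM, the prostaglandin synthase gene Ptgs2 from 4.71 ± 0.38 to 8.82 ± 1.10 CPM, and the chemokine gene Cxcl2 from 12.1 ± 2.43 to 26.8 ± 1.75 CPM (SD, n = 3 each). The other members called were Sod2 (0.36) and Cd40 (-0.39), named after their values were seen. Ccl5, Cxcl10, Il1b, Il10, Marcksl1, Nfkbia and Nos2 were not called, and Il6, Il12b and Ifnb1, each with a group mean of at most 0.26 CPM, were not tested. Leaving out any of the 6 libraries again gave 5 higher genes, whereas the number of lower genes was 0 when XWT 1 or an XKO library was omitted and 2 when XWT 3 was. Neutrophil markers, some of them also LPS-induced, rose between the same groups, and their part in this was not tested.

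**Figure D5:**
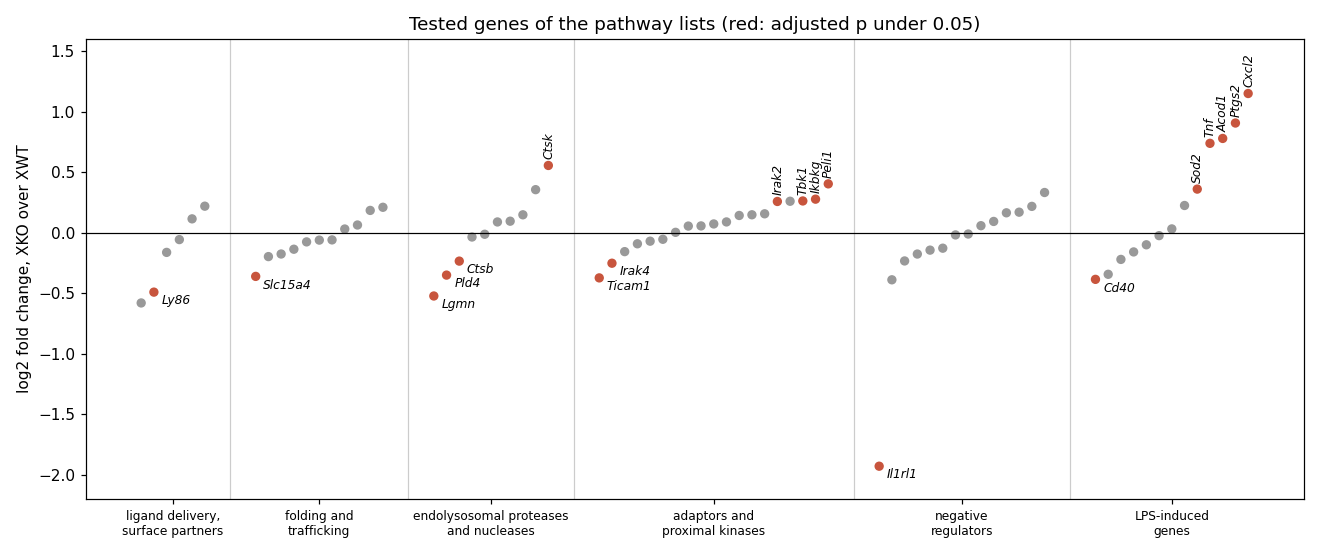
Log2 fold change, XKO over XWT, of each tested gene in 6 pathway lists, ordered within its list; red points, with their names, have an adjusted p under 0.05. The named genes of endolysosomal proteases and nucleases are mostly below 0, and 5 of the 6 named LPS-induced genes are above it.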

How the data were processed

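Reads were counted per gene in 3 XWT and 3 XKO libraries. The authors deposited 1 table: raw counts per Ensembl gene, FPKM per library, scaled group means (a signal), a log2 fold change, and p-values, per the file headers. Bowtie 0.12.2 and the builds mm8 and mm10 appear, without role, per the submitters' processing notes. The read counter, its annotation and use of strand are not stated in the labels or file headers. GENCODE M21 (GRCm38) held 54409 of the 54532 IDs, 98.3% of them at identical coordinates; coordinates are the table's.

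Counts were filtered with filterByExpr, TMM-scaled (factors 0.951 to 1.03) and tested with edgeR 4.0.16 (R 4.3.3; robust quasi-likelihood fit, 4 residual degrees of freedom) and Benjamini-Hochberg adjustment over 14333 genes at 0.05. The standard error is the log2 fold change over the square root of F; 95% intervals follow from it. FPKM served only to compare genes per length. Scripts were tested on simulated data. The members and lists were chosen with earlier results of these data known. All 10 members and Xbp1 are named, and from each list up to 4 called genes of smallest p, or 2 where none was called. Alternatives were other scalings and filters, DESeq2 1.42.0, limma-voom (limma 3.58.1), length and GC trends removed (mgcv 1.9.3), a threshold of 0.01, a replicate block, the authors' deposited table, and each library left out. No pair of XWT or XKO libraries agreed within sampling noise, and the XKO libraries lay closer together. Chi-square per gene was 20.8 to 23.66 between XWT libraries and 2.92 to 4.85 between XKO libraries. Endothelial, T and NK cell, conventional dendritic cell and hepatocyte markers were also read: 1 of 3, 1 of 1 and 0 of 3 tested genes were lower, none was higher, and all 6 hepatocyte genes had no count in any library.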

Additional observations from a re-analysis of the deposited data

How the results depend on the processing

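Tlr9 kept its direction and call under all 16 alternatives, and Tlr1 and Cd14 kept their direction. The call of Tlr4 ended with a threshold of 0.01 (0.22), the replicate block (0.22, adjusted p = 0.0541), length and GC trends removed (0.033) and 5 of 6 omissions of a library (0.16 to 0.24; 0.25 without XWT 3, where it held), so that the number of members called higher was 0 in each of these; with libraries left out it ranged from 0 to 1, and the number called lower from 1 to 2, Cd14 (-0.28 to -0.15) being called without XWT 3. The cause was not tested. Small changes of members that were not called turned sign. With library size alone Tlr2 was 0.056, Tlr7 0.021, Tlr8 0.037 and Tlr13 0.060; with trends removed Tlr2 was 0.0082, Tlr3 -0.11, Ly96 -0.20 and Tlr6 -0.016; Tlr13 was 0.0011 with limma-voom and 0.00083 with the replicate block. With libraries left out, Tlr2 ranged from -0.068 to 0.075, Tlr7 from -0.10 to 0.027, Tlr8 from -0.14 to 0.11, Tlr13 from -0.086 to 0.13, Ly96 from -0.080 to 0.075 and Tlr6 from -0.023 to 0.093. Over all genes, 1434 were higher with trends removed, 749 lower with library size alone, and 262 higher and 544 lower at 0.01; with libraries left out, 274 to 2073 were higher and 532 to 2164 lower. Unfiltered, 1289 were higher and 1545 lower. Of the 75 pathway genes, 18 were higher with library size alone and 17 with trends removed, 5 were lower at 0.01, and 7 to 15 were higher and 4 to 17 lower with libraries left out. The replicate block gave 1068 higher and 1127 lower genes. No pairing by number was seen in the values: deviations of equal-numbered libraries correlated at -0.043, -0.036 and -0.054. These correlations cannot show whether equal-numbered samples were prepared together. Leaving out a library leaves a group with 2 samples.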
